A study of Mus musculus with 7 samples.

Results

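Cells of neural crest origin from mouse small bowel were compared before and after culture: 1 library of bowel M2 neurospheres was set against 1 library of cells taken fresh from the same kind of tissue. These are 2 of the 7 libraries of the study, and 15189 of the 27179 genes were measured, with at least 1 CPM (reads of a gene relative to the library total) in either library. Both came from Wnt1-tdT mice, a cross of Wnt1-Cre with R26R-tdT reporter animals, in which the Wnt1 promoter drives the Cre that permanently marks crest cells and their progeny with tdTomato, a red fluorescent protein. Each library was made from about 50000 cells pooled equally from 3 mice aged 1 month, 2 female and 1 male. Primary cells were sorted for tdTomato directly after collagenase XI and dispase digestion of the smooth muscle layer with its myenteric plexus. M2 cells from the same layer first spent 10 days as mixed spheroids, were sorted for tdTomato, and then grew for 10 further days as neurospheres. The culture medium held heparin and the mitogens EGF and basic FGF throughout. Besides these, the cells of mixed spheroids sorted at day 10 (tdTomato-positive) and M1 neurospheres, sorted first and cultured for 10 days, are cited where M2 is placed among the cultured bowel cells. Also cited are tdTomato-negative cells of mixed spheroids sorted at day 10, adipose primary cells, and adipose neurospheres. The last were cultured for 10 days before and 10 days after sorting. Each of these is 1 library from 3 pooled mice aged 1 month, 2 female and 1 male.

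The enteric nervous system is built by neural crest cells that enter the embryonic gut, divide there under RET and endothelin signals, and turn into neurons and glia. In the adult gut, neurons of the myenteric plexus carry transmitters and peptides that drive or relax the muscle, glia surround them, and few cells of either kind divide. Neurospheres are floating balls of dividing cells in which crest-derived progenitors, glia and new neurons can occur together.

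The words higher and lower are used for a gene whose ratio, scaled between libraries by trimmed means, was at least 4-fold with a 95% counting interval wholly beyond 2-fold. By this size rule 894 genes (5.89%) were higher in M2 neurospheres and 3188 (21.0%) were lower, 26.9% in either direction, and the median log2 ratio over all genes measured was -0.07. Of the lower genes, 930 differed 64-fold or more, against 29 of the higher ones. With plain CPM in place of scaled reads, the median of all genes moves up by 0.29 on the log2 scale, and 1262 genes were higher and 2959 lower. Some list counts below are limited to genes with at least 1 CPM in a cultured bowel crest library (M2, M1 or tdTomato-positive spheroid cells). This limit was chosen after seeing the data. Of the 13889 genes within it, 894 were higher and 1949 lower, and those list counts are to be read beside these numbers. Each group is a single library, so there is no replicate check and no test, and the intervals cover counting error only. Genes just outside and just inside the 1 CPM limit were Gad1 (0.988 CPM in primary cells, 0.0153 in M2) and Fosl1 (0.329 CPM in primary cells, 1.03 in M2). In pooled bulk RNA, fewer cells of a type and less RNA per cell cannot be told apart.

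Crest and glial markers were present in both libraries, and the primary library also held RNA of other cells. Sox10, the transcription factor of crest progenitors and glia (chromosome 15, 79154913 to 79164490, GRCm38.p6), had 98 CPM in primary cells and 661 CPM in M2. Reads of 159 marker genes of smooth muscle, mesothelium, exocrine pancreas, blood, vessels, fat and connective tissue made up 15.2% of the primary library and 0.726% of the M2 library. Pancreatic acinar genes alone took 9.31% and 0.0248%, and smooth muscle genes 3.78% and 0.0105%. Cela2a, a pancreatic elastase, had 15481 CPM in primary cells and 0.873 CPM in M2 (log2 ratio -14.34, interval -14.80 to -14.03). Leaving all other-cell reads out of the library totals gave 943 higher and 3135 lower genes. That alternative, chosen after seeing the data, changes only the scale.

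**Figure D1:**
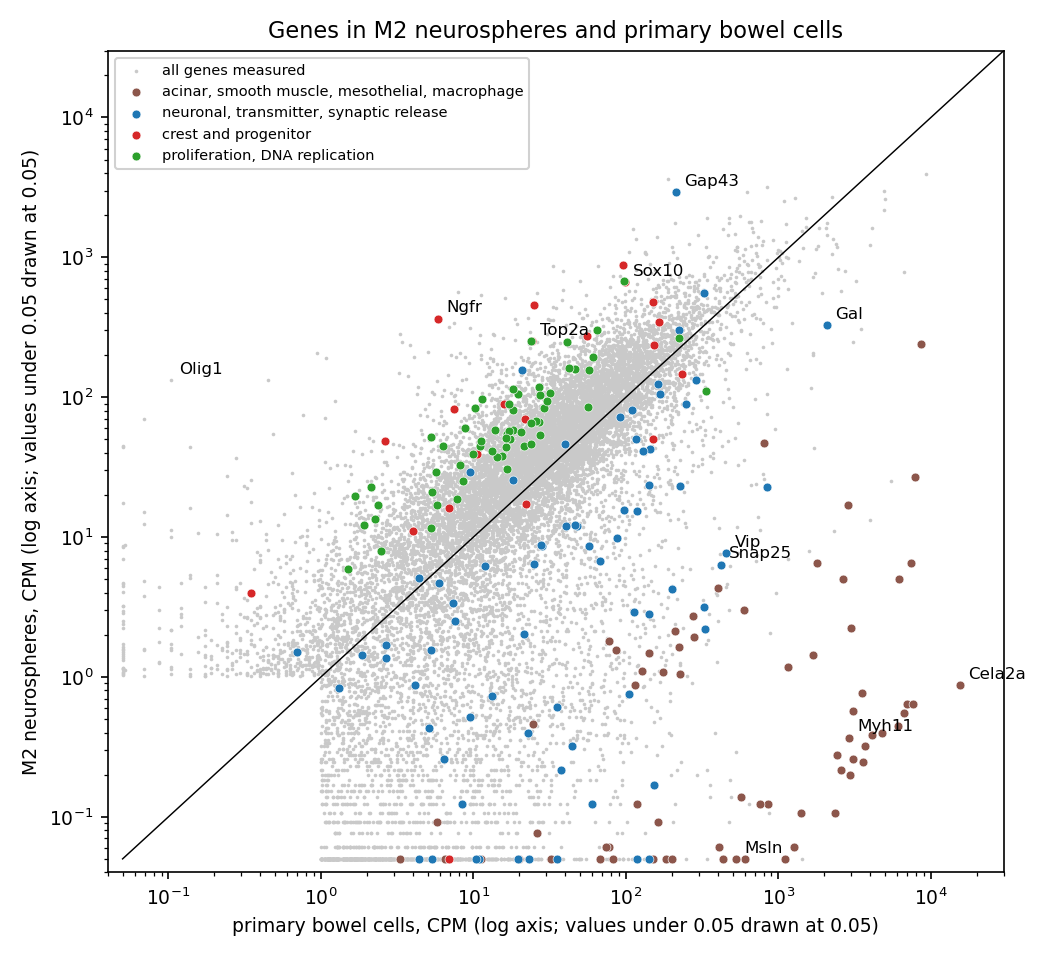
Level of each of the 15189 genes measured in primary bowel cells (horizontal, CPM, log axis) and in M2 neurospheres (vertical, CPM, log axis), 1 library each, with members of 4 sets of gene lists in colour. Acinar, smooth muscle, mesothelial and macrophage genes lie far below the line of equal levels, most neuronal genes below it, and most crest and cell cycle genes above it.

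Nearly all of the crest progenitor genes that passed were higher after culture. Of 21 measured, 10 were higher and 1 lower (median log2 ratio 1.63). Ngfr, the low-affinity neurotrophin receptor of crest stem cells and immature glia (chromosome 11, 95568818 to 95587698), had 5.88 CPM in primary cells and 365 CPM in M2 (log2 ratio 5.66, interval 5.52 to 5.83). Erbb3, the neuregulin receptor of crest and glia, had 24.9 and 457 CPM (log2 ratio 3.91, interval 3.84 to 3.99). Sox2, a factor of neural stem cells, had 7.49 and 82.2 CPM, and Nes, the intermediate filament of neural progenitors, had 24.1 and 254 CPM. Foxd3, an early crest factor, had 15.8 and 90.1 CPM, and Zeb2, a repressor needed for enteric crest, had 95 and 878 CPM. For each of these 6 genes the M2 value is at least 4 times the primary one.

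Receptors that guide enteric progenitors differed less. Ret, the GDNF receptor kinase, had 55.7 CPM in primary cells and 274 CPM in M2, a log2 ratio of 2.01 at the edge of the size rule, and it did not pass with DESeq2 size factors. Its co-receptor Gfra1 had 165 and 346 CPM (log2 ratio 0.78). Ednrb, the endothelin receptor, had 234 and 147 CPM (log2 ratio -0.95). Gfra2, the neurturin co-receptor, had 150 and 50 CPM (log2 ratio -1.87). None of the latter 3 passed. Twist1, a mesenchymal factor, was the lower member of the list, with 6.9 CPM in primary cells and 3 reads in M2 (0.0459 CPM, log2 ratio -6.70, interval -9.80 to -5.96).

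Glial genes divided. Of 25 measured, 6 were higher and 7 lower, the latter a share near the 21.0% of all genes (median log2 ratio 0.01, between -0.08 and 0.29 across settings). Gfap, the intermediate filament of reactive and mature glia, had 65.6 CPM in primary cells and 874 CPM in M2 (log2 ratio 3.45, interval 3.40 to 3.50). The cadherin Cdh19 had 160 and 1407 CPM, the connexin Gjc3 had 52.1 and 369.9 CPM, and the filament protein Vim had 340 and 1905 CPM. Among the lower members, Aldh1a1, a retinoic acid-producing enzyme, had 217 and 0.214 CPM, and Sostdc1, a secreted BMP and Wnt antagonist, had 198 and 0.383 CPM. Apoe, the lipid carrier, had 6673 and 780.1 CPM, the potassium channel Kcna1 had 355 and 37.8 CPM, and the glutamine synthetase gene Glul had 128 and 17.2 CPM. Apoe is also made by macrophages, whose marker genes took 0.529% of the reads in primary cells and 0.00361% in M2. Their part in the Apoe value was not tested. S100b (95.7 and 311 CPM) and Entpd2 (155 and 521 CPM), which mark enteric glia in general, passed in neither direction. The glial list as a whole took 1.06% of the reads in primary cells and 0.944% in M2.

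Genes of the oligodendrocyte lineage, the myelinating glia of the central nervous system, stood among the highest ratios. Olig1, a transcription factor of that lineage (chromosome 16, 91269769 to 91271939), had 6 reads in primary cells (0.104 CPM) and 132 CPM in M2 (log2 ratio 9.67, interval 8.90 to 11.47). Olig2 had 0.243 and 27.3 CPM. Lhfpl3, a membrane protein gene expressed in oligodendrocyte precursors, had 0.0693 and 69.6 CPM. Gpr17, a receptor of oligodendrocyte precursors about to differentiate, had 7.89 and 561 CPM (log2 ratio 5.86), and Cspg4, which encodes the NG2 proteoglycan, had 22.6 and 191 CPM. These are the 5 higher members of 14 measured. The 4 lower ones were Pdgfra (69.3 and 2.42 CPM), Omg (22.4 and 1.09 CPM), Mog (2.77 CPM and 2 reads, log2 ratio -5.69, interval -9.84 to -4.91) and Tmem132b (1.94 and 0.337 CPM). Of the 12 members with at least 1 CPM in a cultured bowel crest library, 5 were higher and 2 lower. The list thus has its early transcription factors higher and the precursor receptor Pdgfra lower, and Pdgfra is a fibroblast gene as well. The list median was 1.25.

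Schwann cell myelin genes, 15 measured, held 2 higher and 5 lower members, with 4 higher under plain CPM or totals without acinar reads (median log2 ratio -0.13, of either sign across the settings). Gldn, which encodes gliomedin, a protein of the Schwann cell at the node of Ranvier, had 0.451 CPM in primary cells and 133 CPM in M2 (log2 ratio 7.83). Ugt8a, an enzyme of myelin lipid synthesis, had 0.104 and 9.97 CPM. Mal, a proteolipid of myelin, had 51.1 and 2.91 CPM, and Egr2, the factor that drives Schwann cell myelination, had 25 and 2.97 CPM. Egr2 is also an immediate early gene. Mbp (287 and 158 CPM), Pmp22 (518 and 559 CPM) and Cnp (521 and 1119 CPM) did not pass.

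**Figure D2:**
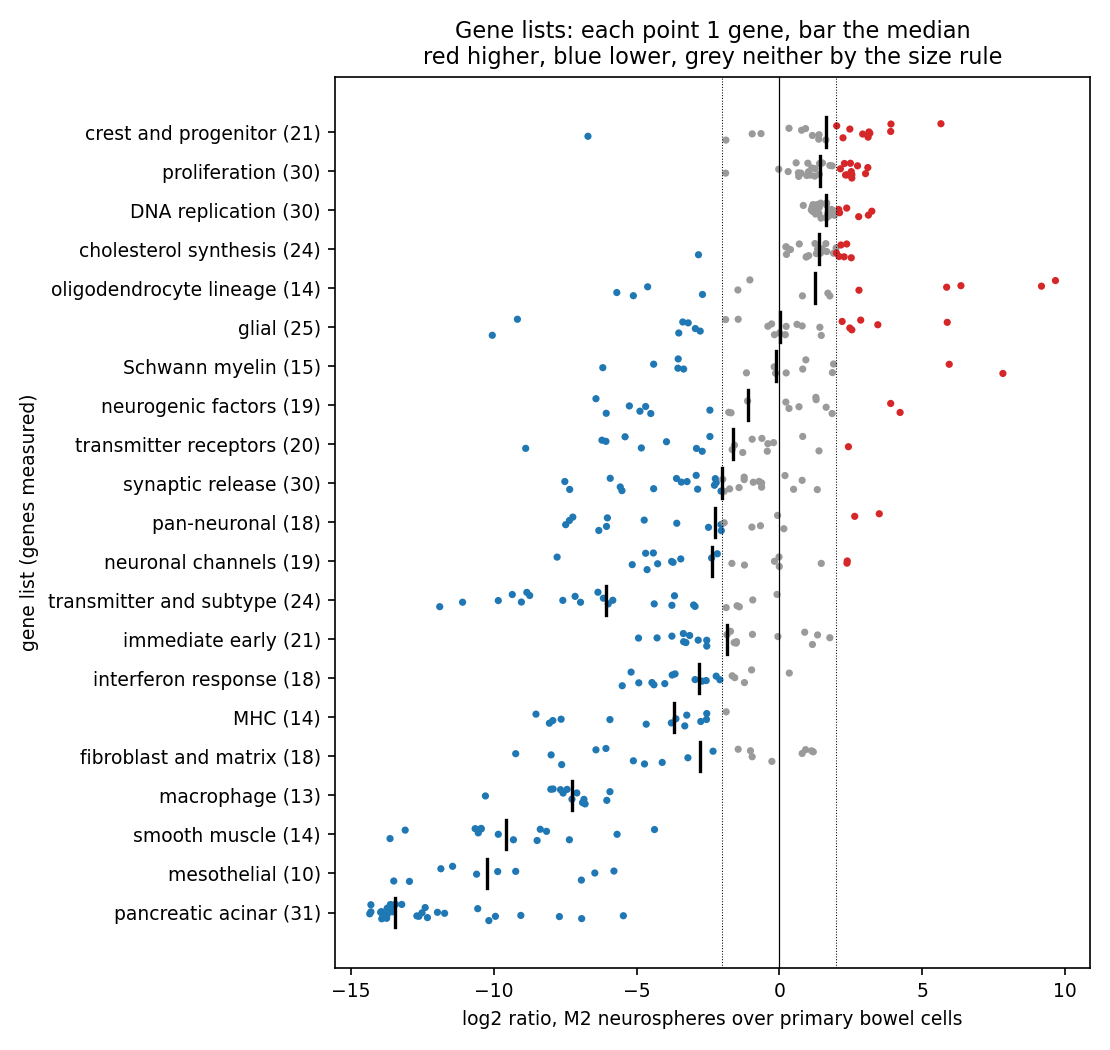
Log2 ratio of M2 neurospheres over primary bowel cells for the members of 21 gene lists (horizontal axis), 1 point per gene, with the number measured in brackets; black bars are list medians, dotted lines mark 4-fold, and genes with 0 reads in a library are drawn at their bound. The medians run from 1.65 for DNA replication to -13.44 for pancreatic acinar genes.

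Many genes of neuronal function were lower after culture, from peptide and transmitter genes to filaments and vesicle release. Among the 24 transmitter, peptide and subtype genes measured, 19 were lower and 0 higher (median log2 ratio -6.08). Of the 15 with at least 1 CPM in a cultured bowel crest library, 10 were lower. Vip, the relaxing peptide of inhibitory motor neurons (chromosome 10, 5639193 to 5647617), had 456 CPM in primary cells and 7.72 CPM in M2 (log2 ratio -6.16, interval -6.30 to -6.04). Tac1, the substance P precursor of excitatory motor neurons, had 327 and 3.17 CPM, and Cartpt, a peptide of the myenteric plexus, had 200 and 4.26 CPM. Calcb, the CGRP precursor of enteric sensory neurons, had 142.6 CPM in primary cells and 0 reads in M2, at least 3785-fold lower. Chat, the enzyme that makes acetylcholine, had 23.2 CPM in primary cells and 2 reads in M2 (log2 ratio -8.74, interval -12.90 to -7.99). Slc18a3, the vesicular acetylcholine transporter, had 118 CPM and 2 reads (log2 ratio -11.09, interval -15.25 to -10.35). Calb2, which encodes calretinin, had 153 and 0.168 CPM, Sst, the somatostatin gene, had 35.4 CPM and 2 reads (log2 ratio -9.35, interval -13.51 to -8.61), and Nos1, the nitric oxide synthase of inhibitory neurons, had 9.48 and 0.521 CPM. Gal, the galanin precursor, was lower but still at 328 CPM, from 2079 CPM. Npy (40 and 46.2 CPM), Penk (287 and 133 CPM) and Slc18a2, the vesicular monoamine transporter (116 and 50.4 CPM), did not pass.

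The 18 general neuronal genes fell into 11 lower, 2 higher and 5 that passed in neither direction (median log2 ratio -2.26). Of the 15 with at least 1 CPM in a cultured bowel crest library, 8 were lower and 2 higher. Prph, the peripheral neuron filament peripherin, had 328 CPM in primary cells and 2.21 CPM in M2 (log2 ratio -7.48), and Nefl, the light neurofilament, had 44 and 0.322 CPM. Snap25, the membrane SNARE of vesicle fusion, had 417 and 6.34 CPM (log2 ratio -6.32, interval -6.47 to -6.19). Stmn2, a microtubule regulator of growing axons, had 228 and 23.1 CPM. In contrast Gap43, the growth cone protein of extending axons that immature glia also make (chromosome 16, 42248552 to 42340651), had 212 and 2917 CPM (log2 ratio 3.50, interval 3.47 to 3.52), and Map2, a dendritic microtubule protein, had 20.7 and 157 CPM. Tubb3, the neuronal tubulin (223 and 303 CPM), Elavl4, the HuD RNA-binding protein (162 and 125 CPM), and Uchl1, the PGP9.5 neuron marker (168 and 105 CPM), did not pass. Neuronal markers therefore moved by very different amounts: Prph, Nefl and Snap25 were over 64-fold lower while Elavl4 and Tubb3 stayed within 4-fold.

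Synaptic release genes showed 15 lower and 0 higher of 30 (median log2 ratio -2.01). Scg2, a granin of peptide vesicles, had 847 CPM in primary cells and 22.6 CPM in M2, Chgb, another granin, had 142 and 2.83 CPM, and Syt5, a calcium sensor of vesicles, had 105 and 0.75 CPM. Syp, the synaptic vesicle protein synaptophysin, was lower by a log2 ratio of -2.04 and did not pass with plain CPM. Syt11 (324 and 559 CPM) and Syt4 (91.6 and 72.7 CPM), which act in membrane traffic, passed in neither direction. Ion channels, 19 measured, had 11 lower and 2 higher members. Of the 18 with at least 1 CPM in a cultured bowel crest library, 10 were lower and 2 higher. The sodium channel of sensory and autonomic neurons Scn9a had 31.2 and 0.138 CPM, whereas the calcium channel Cacna1b, among the higher ones, had 1.07 and 6.98 CPM.

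Receptors for transmitters were less uniform, with 9 of 20 lower and 1 higher (median log2 ratio -1.61). Of the 17 with at least 1 CPM in a cultured bowel crest library, 6 were lower and 1 higher. P2rx2, the ATP-gated channel, had 80.3 CPM in primary cells and 3.4 CPM in M2, and Tacr3, the neurokinin receptor, had 15.2 and 0.214 CPM. Htr3a, the serotonin-gated channel, had 215 and 228 CPM (log2 ratio -0.20), while its partner subunit Htr3b had 35.7 and 5.82 CPM and was lower. Of the ganglionic nicotinic subunits, Chrna3 had 156 and 60.4 CPM (log2 ratio -1.65, not passing) and Chrnb4 had 93.1 and 21 CPM (log2 ratio -2.43, lower). The higher member was the kainate receptor Grik3, with 9.17 and 60 CPM.

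Factors that direct neuron formation were not uniformly lower. Insm1, a zinc finger factor of newly born neurons and endocrine cells, had 0.433 CPM in primary cells and 10.5 CPM in M2 (log2 ratio 4.23). Hand2, needed for enteric neuron differentiation (19.2 and 73.2 CPM), Sox11 (2.18 and 9.72 CPM) and Etv1 (139 and 198 CPM) did not pass. Myt1l, which keeps neurons neuronal, had 16.8 and 0.505 CPM, and Ebf1 had 11.1 and 0.168 CPM. In all 7 of 19 were lower and 2 higher. The list median of -1.11 rested on factors at low levels: with a limit of 5 CPM, 13 factors remained, 2 of them lower, and the median was 0.34. With that limit 2111 of all 12707 genes were lower, a share near that of the factors.

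**Figure D3:**
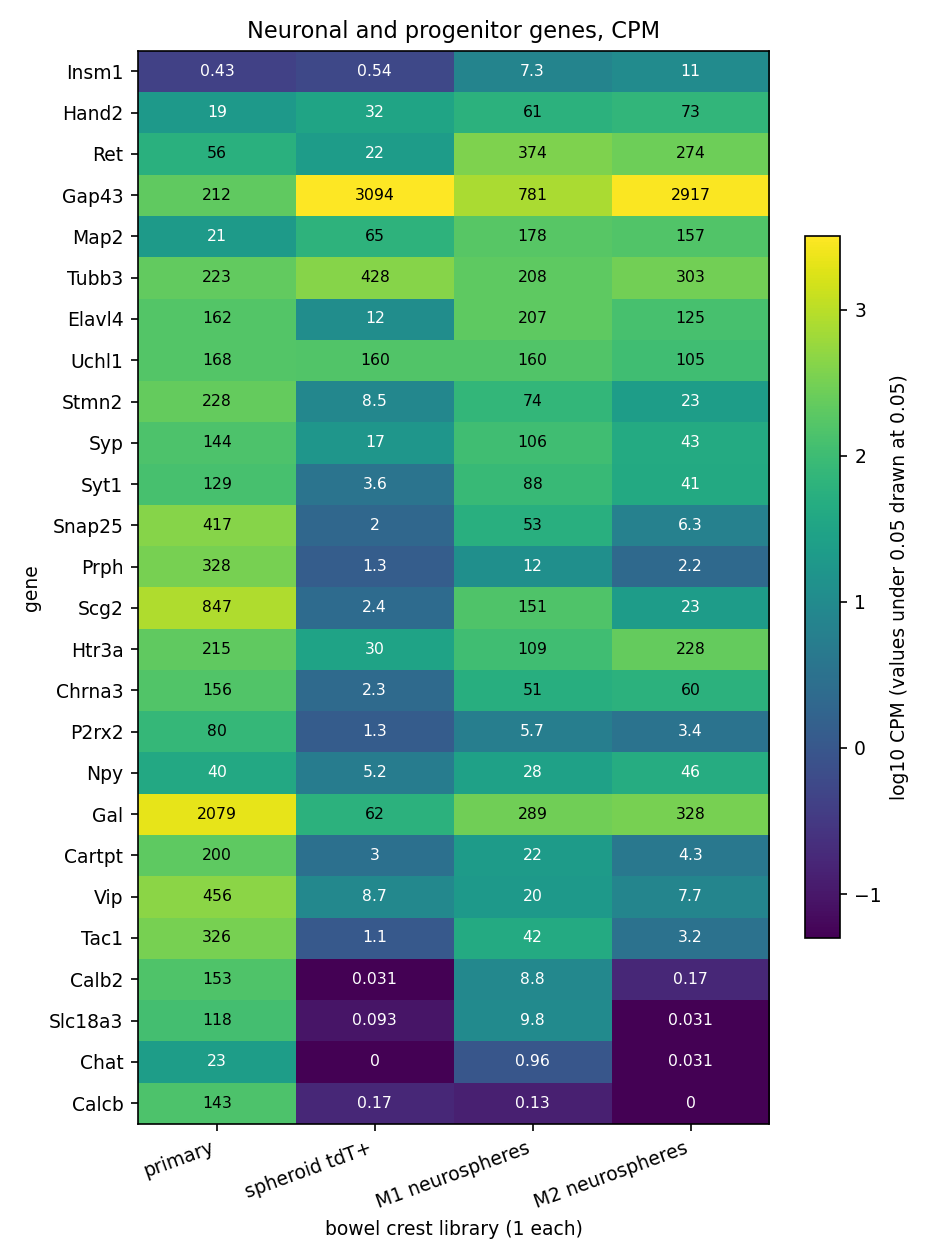
CPM of 26 neuronal and progenitor genes (rows) in the 4 bowel crest libraries, 1 each (columns), with the value printed in each cell and colour on a log10 scale. Tac1, Calb2, Slc18a3, Chat and Calcb, at the bottom, are highest in the primary cells, while Ret has 274 CPM in M2 and 374 CPM in M1 neurospheres.

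Cell cycle genes that passed were higher in M2 neurospheres. The proliferation list had 11 higher and 0 lower members of 30, with a median log2 ratio of 1.41. Top2a, the topoisomerase of dividing cells, had 23.9 CPM in primary cells and 250.2 CPM in M2 (log2 ratio 3.10, interval 3.02 to 3.18). Bub1, a spindle checkpoint kinase, had 5.27 and 52.3 CPM. Cdk1, the mitotic kinase, had 19.5 and 105 CPM, and Mki67, the standard proliferation marker, had 18.3 and 115 CPM. Ccnd1, the cyclin D that answers growth factors, had 96.5 and 677 CPM (log2 ratio 2.52), while Ccnd2 had 333 and 110.3 CPM (log2 ratio -1.88) and Ccnd3 had 222 and 267 CPM, neither passing. Spindle genes such as Cenpf (24 and 46.6 CPM) and Aurka (15.5 and 37.9 CPM) did not pass.

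All 30 DNA replication genes had a log2 ratio above 0, with a median of 1.65, and 6 passed as higher (11 with plain CPM). Cdc6, which loads the replicative helicase, had 2.11 CPM in primary cells and 22.8 CPM in M2 (log2 ratio 3.12), and Pole, a replicative polymerase, had 1.68 and 19.7 CPM. Uhrf1, which carries DNA methylation through replication, had 11.5 and 96.4 CPM. The helicase subunits Mcm2 to Mcm7 had log2 ratios between 1.18 and 1.87 and did not pass. Of 15 inhibitors of the cell cycle, 3 were higher: Cdkn2b, an inhibitor of cyclin D kinases (1.56 and 32 CPM), Trp53inp1 (23 and 155 CPM), and Cdkn2a, the INK4a and ARF locus, with 0 reads in primary cells and 3.23 CPM in M2, at least 51-fold higher. Btg2, an antiproliferative and immediate early gene, was lower (500 and 85.3 CPM), and Cdkn1a (147 and 162 CPM) and Cdkn1b (6.76 and 6.37 CPM) did not pass.

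Genes of mitosis are classically read through a promoter element, the cell cycle homology region (CHR), bound by the DREAM and MuvB complexes, and S phase genes through E2F sites. RefSeq promoter windows of GRCm38.p6, from 250 bases before to 50 after the annotated start, were found for 22 of the 30 proliferation genes (24 windows) and 25 of the 30 replication genes (30 windows). The letters TTTGAA of the CHR, searched on both strands, occurred in 15 of the 24 proliferation windows (62.5%), in 4 of the 30 replication windows (13.3%), and in 17.9% of all 32851 windows of the table. Within the last 150 bases of the windows the shares were 62.5% of proliferation windows and 8.01% of all windows. The variant TTCGAA was in 12.5% of proliferation windows and 1.56% of all. The E2F letters TTTCCCGC occurred in 5 of 30 replication windows (16.7%), 0 of 24 proliferation windows and 1.07% of all, and TTTGGCGC, another E2F form, in 16.7% of replication windows and 0.514% of all. CCAAT, the NF-Y box, was in 79.2%, 63.3% and 37.4%. A match is a run of letters, not a bound site, and binding was not measured here. The windows of 3 of the higher mitotic genes and 1 higher replication gene are shown, 5′ to 3′ on the gene's strand, because they display the elements and where they lie. Capitals mark CHR letters and the variant in Cdk1, Top2a and Bub1, and the first E2F form in Cdc6, each as its reverse complement where it lies on the other strand.
Cdk1 (chr10:69352863-69353162, minus strand): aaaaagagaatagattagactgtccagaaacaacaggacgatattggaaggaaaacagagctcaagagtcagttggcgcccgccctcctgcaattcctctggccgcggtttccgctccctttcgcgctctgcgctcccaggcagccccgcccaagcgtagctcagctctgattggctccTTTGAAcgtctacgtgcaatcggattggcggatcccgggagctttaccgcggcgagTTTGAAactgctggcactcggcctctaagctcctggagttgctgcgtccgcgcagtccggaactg
Top2a (chr11:99024140-99024439, minus strand): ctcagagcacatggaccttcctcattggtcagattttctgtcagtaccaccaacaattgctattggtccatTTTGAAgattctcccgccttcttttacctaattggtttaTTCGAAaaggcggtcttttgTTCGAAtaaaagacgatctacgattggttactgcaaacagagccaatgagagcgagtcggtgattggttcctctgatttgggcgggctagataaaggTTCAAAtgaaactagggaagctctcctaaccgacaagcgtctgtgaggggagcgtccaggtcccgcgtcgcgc
Bub1 (chr2:127831810-127832109, minus strand): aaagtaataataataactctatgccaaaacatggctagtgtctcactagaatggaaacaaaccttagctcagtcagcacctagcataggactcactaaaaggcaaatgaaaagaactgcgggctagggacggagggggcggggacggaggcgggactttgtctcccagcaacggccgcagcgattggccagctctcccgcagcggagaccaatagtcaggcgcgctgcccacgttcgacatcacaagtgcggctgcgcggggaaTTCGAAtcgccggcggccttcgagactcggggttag
Cdc6 (chr11:98907901-98908200, plus strand): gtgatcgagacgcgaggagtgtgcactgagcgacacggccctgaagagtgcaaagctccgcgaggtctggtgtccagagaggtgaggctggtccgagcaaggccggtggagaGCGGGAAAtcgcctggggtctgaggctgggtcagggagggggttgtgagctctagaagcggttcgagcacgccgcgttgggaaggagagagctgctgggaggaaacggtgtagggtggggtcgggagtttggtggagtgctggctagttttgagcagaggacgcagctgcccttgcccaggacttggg

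In Cdk1 the CHR matches begin at positions -71 and -15 from the start, and CCAAT matches at -208, -80 and -48. Top2a has CHR matches at -179 and -23, and the variant at -140 and -120. Bub1 has the variant alone, at position 14, with CCAAT at -68 and -42. All 3 genes were at least 4-fold higher in M2, and the window of Bub1 lacks the main CHR letters. The window of Cdc6 has 1 E2F stretch in capitals.

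**Figure D4:**
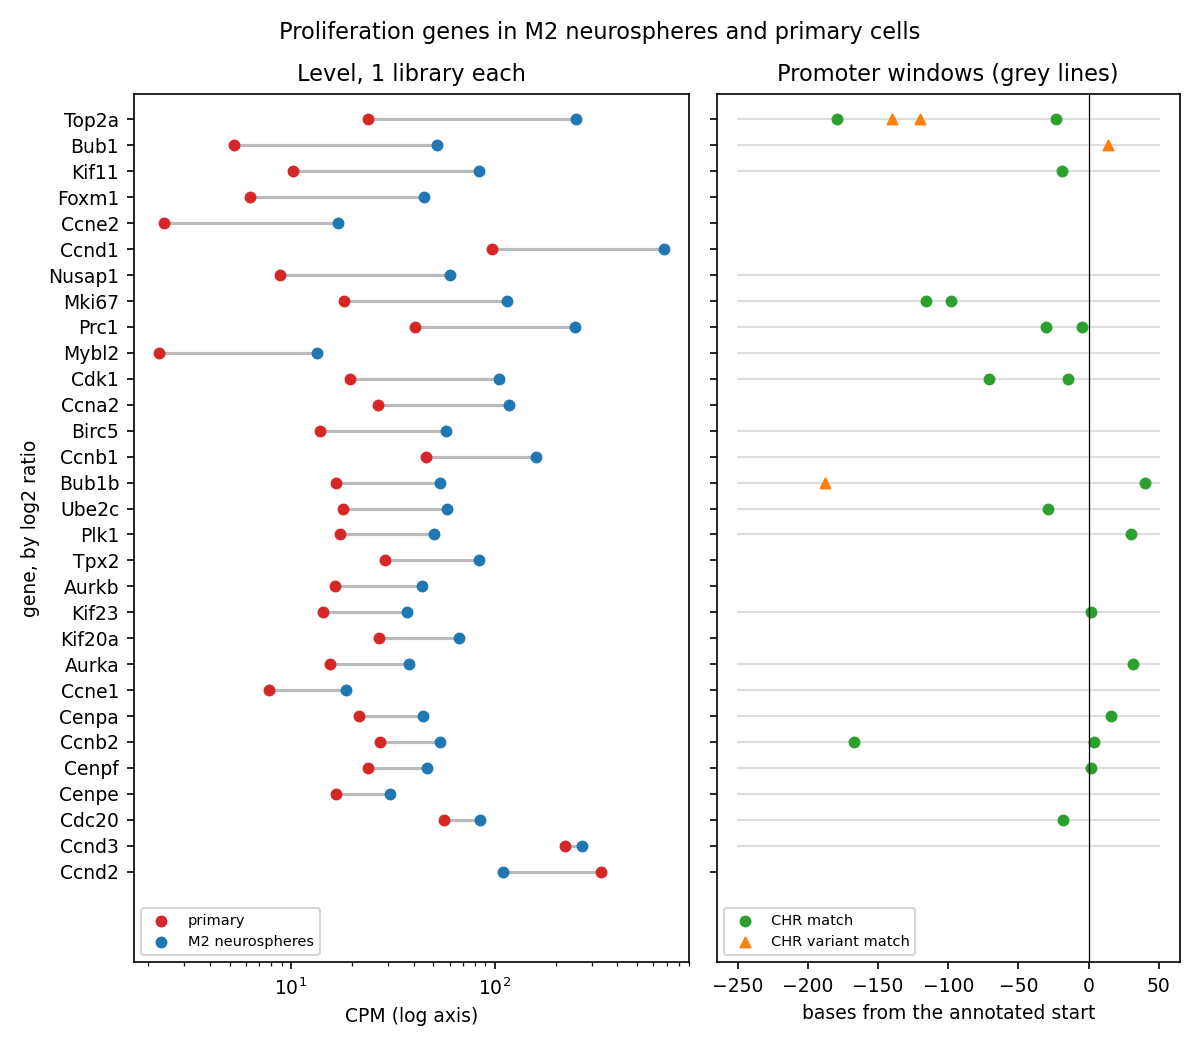
Left, CPM of the 30 proliferation genes in primary cells (red) and M2 neurospheres (blue) on a log axis, ordered by log2 ratio; right, distance from the annotated start, in bases, of CHR and CHR variant matches in the windows of the 22 genes with an entry (grey lines). The M2 point lies to the right of the primary point for every gene except Ccnd2, and most CHR matches lie close to the start.

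Cholesterol synthesis, a pathway that supplies membrane to growing cells and is switched on by SREBP2 when sterols are scarce, also had higher genes. Among 24 measured, 6 were higher and 1 lower (median log2 ratio 1.39), and 23 had a ratio above 0. Cyp51, the lanosterol demethylase, had 55.5 CPM in primary cells and 388 CPM in M2 (log2 ratio 2.52). Msmo1, the next sterol oxidase, had 118 and 642 CPM, Idi1, the isoprene isomerase, had 17.6 and 110.3 CPM, and Dhcr7, the last reductase of the pathway, had 17.6 and 104 CPM. Hsd17b7, a sterol reductase (21 and 102 CPM, log2 ratio 1.99), lay just under the threshold. In 19 promoter windows of this list the sterol regulatory element consensus was found in 0, against 0.234% of all windows, and its shorter form TCACNCCA in 15.8%, against 4.36%.

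Feedback genes of the growth factors in the medium were partly higher. Among 22 genes of FGF and EGF response, 5 were higher and 4 lower (median log2 ratio 0.82). The 4 lower ones are no larger a share than the 21.0% of all genes. Etv4, a transcription factor induced by FGF, had 0.243 CPM in primary cells and 14.3 CPM in M2 (log2 ratio 5.44), and the ERK inhibitors Spry2 (2.25 and 26.8 CPM), Spry4 (13.7 and 80.2 CPM) and Dusp4 (4.16 and 28.2 CPM) were higher, as was the EGF family ligand Areg (1.25 and 8.44 CPM). Dusp6, a phosphatase of the same loop, had 166 and 376 CPM and did not pass. Among the lower genes were the receptors Fgfr2 (105 and 2.04 CPM) and Egfr (15.7 and 1.06 CPM). In the tdTomato-negative, non-crest cells of the spheroids Fgfr2 had 103 CPM and Egfr 238 CPM, and the part of such cells in the primary values was not tested. Fgfr1 had 54.4 and 119 CPM and did not pass.

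Of 16 genes for secreted signals to crest and neurons, 5 were higher and 4 lower, the latter a share near the 21.0% of all genes. Among the 13 with at least 1 CPM in a cultured bowel crest library, 5 were higher and 1 lower. Artn, a GDNF family ligand that acts on sympathetic and sensory neurons, had 3.4 CPM in primary cells and 247 CPM in M2 (log2 ratio 5.88, interval 5.69 to 6.11). Gdnf, the ligand of Ret, had 1.06 and 34.4 CPM, the neurotrophin Bdnf had 2.95 and 46.4 CPM, and Tgfb1 had 8.1 and 56.2 CPM. Nrtn, the neurturin gene, had 39.2 and 13.7 CPM (log2 ratio -1.80) and did not pass. Endothelin genes were among the lower ones: Edn3, the ligand that enteric crest needs, had 17 and 0.123 CPM, and Edn1, made by vessels, had 11 CPM and 2 reads (log2 ratio -7.66, interval -11.82 to -6.91). Pdgfb, another vessel gene, had 37.6 CPM and 2 reads (log2 ratio -9.44, interval -13.60 to -8.69). Endothelial markers were lower too, 9 of 12, with Tie1 at 22.81 CPM in primary cells and 0 reads in M2. Of the 7 endothelial markers with at least 1 CPM in a cultured bowel crest library, 4 were lower. The part of endothelial cells in the values of Edn1 and Pdgfb was not tested.

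Notch1, the receptor that holds progenitors back from differentiation, had 15.4 CPM in primary cells and 172 CPM in M2 (log2 ratio 3.20), and the ligand Dll3 had 1.89 and 11.8 CPM. The 3 lower genes of this pathway, of 17 measured, were the vessel ligand Dll4, with 5.114 CPM and 0 reads (at least 136-fold lower), Jag2 (3.19 and 0.291 CPM) and the feedback gene Nrarp (9 and 1.67 CPM). These 3 are no larger a share than the 21.0% of all genes, and 1 of the 15 that reached 1 CPM in a cultured bowel crest library was lower. With plain CPM 4 Notch genes were higher in place of 2. Hes1 (52.6 and 34.4 CPM) and Heyl (45.9 and 192 CPM), targets of Notch, did not pass. Retinoic acid genes, 14 measured, had 7 lower and 1 higher (median log2 ratio -2.23), the higher one being Rarg at a log2 ratio of 2.01, which missed the rule with DESeq2 size factors. Besides Aldh1a1, the lower genes included the receptor Rarb, itself a retinoic acid target (59.3 and 1.23 CPM), and the enzyme Aldh1a2 (141 and 21.1 CPM). Of the 13 retinoic acid genes with at least 1 CPM in a cultured bowel crest library, 6 were lower and 1 higher. The retinoic acid list took 0.0852% of reads in primary cells, 0.0241% in M2 and 0.174% in tdTomato-negative spheroid cells. The part of non-crest cells in the primary values was not tested. Of 20 genes of Wnt and BMP signalling, 9 were lower and 0 higher (median log2 ratio -1.36), or 5 of the 16 with at least 1 CPM in a cultured bowel crest library, among the 9 the Wnt feedback gene Nkd1 (171 and 8.56 CPM) and the antagonists Dkk3 (348 and 1.82 CPM), Sfrp1 (168 and 15.1 CPM) and Grem1 (70.8 and 0.858 CPM). In tdTomato-negative spheroid cells Dkk3 had 715 CPM, Sfrp1 384 CPM and Grem1 802 CPM, and the part of non-crest cells in these results was not tested.

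Most antigen presentation and interferon response genes were lower. Of 14 MHC genes 13 were lower (median log2 ratio -3.70). The class II genes H2-Ab1 (3989 and 13.2 CPM) and Cd74 (5501 and 25.3 CPM), made by macrophages and dendritic cells, were lower. Class I genes, which most cells make, differed less: H2-D1 had 3468 and 308 CPM, H2-K1 had 1694 and 208 CPM, and B2m had 2451 and 822 CPM and did not pass. The interferon response list had 13 lower and 0 higher members of 18, with a median log2 ratio of -2.82. The transcription factor Irf7 had 41.3 and 3.08 CPM and Oasl2 had 130 and 11.7 CPM, whereas Isg15 (14.5 and 9.02 CPM) and Ifit2 (62.7 and 97.1 CPM) did not pass.

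Immediate early genes, which respond within minutes to tissue handling and to growth signals, included 10 lower and 0 higher of 21 (median log2 ratio -1.83). Fos had 3221 CPM in primary cells and 673 CPM in M2, Egr1 had 1144 and 158 CPM, Dusp1 had 1693 and 200.4 CPM, and Klf2 had 129 and 5.15 CPM. Atf3, a stress factor, had 492 and 581 CPM and did not pass. The heat-inducible chaperones Hspa1a (409 and 6.42 CPM), Hspa1b (485 and 6.2 CPM) and Hspb1 (233 and 6.16 CPM) were lower, and the other 13 of 16 heat shock genes passed in neither direction, a share near that of all genes, with Hspa8 at 1815 and 1201 CPM. Hspa1a and Hspa1b are near-identical copies that can share reads. The 2 libraries differ in handling as labelled. Primary cells went straight from tissue digestion to sorting, and M2 cells were not sorted in the last 10 days. Handling and culture cannot be told apart with these 2 libraries, and the part of handling in these values was not tested.

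Markers of other cells together took a smaller share of the M2 library, though those of interstitial cells of Cajal did not (0.0544% and 0.0645%). Macrophage genes had 0.529% of reads in primary cells and 0.00361% in M2, and mesothelial genes 0.187% and 0.000309%. Most of these markers were measured only through the primary library, so that they had to differ, and their counts are a description: 31 acinar, 14 smooth muscle, 13 macrophage, 11 epithelial, 10 mesothelial, 10 lymphocyte, 9 adipocyte, 5 mast cell and 4 erythroid genes were measured and lower. Among genes with at least 1 CPM in a cultured bowel crest library, there remained 12 smooth muscle, 11 macrophage, 9 mesothelial, 6 acinar, 4 mast cell, 3 lymphocyte, 3 adipocyte, 2 epithelial and 0 erythroid genes, each of them lower. Of the other lists, 2 of 4 melanocyte genes, 5 of 8 genes of interstitial cells of Cajal and 9 of 12 endothelial genes were lower. With at least 1 CPM in a cultured bowel crest library, these were 1 of 3, 4 of 7 and 4 of 7. Myh11, the myosin of smooth muscle, had 2901 CPM in primary cells and 0.368 CPM in M2 (log2 ratio -13.10), and Acta2 had 7415 and 6.49 CPM. Msln, a mesothelial surface protein, had 527 CPM and 3 reads (log2 ratio -12.95, interval -16.05 to -12.22), and Upk3b, another, had 435.5 CPM and 0 reads, at least 11556-fold lower. The macrophage receptor Csf1r had 399 and 4.35 CPM, and Lyz2, the lysozyme of macrophages, 2843 and 17.1 CPM. Kit (19.6 and 1.1 CPM) and Ano1 (71.9 and 0.383 CPM), which mark interstitial cells of Cajal, were lower, and Etv1, listed with both these cells and neurogenic factors, was not (139 and 198 CPM). Matrix genes divided, 10 lower of 18 and 0 higher: Dcn, which encodes decorin, had 2308 and 11 CPM and Col1a2 had 415 and 7.52 CPM, but Postn (1059 and 1077 CPM), Col6a1 (327 and 754 CPM) and Fn1 (218 and 580.5 CPM) did not pass. Of all 3188 lower genes 131 are in these other-cell lists. A further view is by the cultured cells: 1239 of the lower genes were under 1 CPM in M2, M1 and tdTomato-positive spheroid cells alike, and 1054 of the 3188 still had at least 1 CPM in M2.

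**Figure D5:**
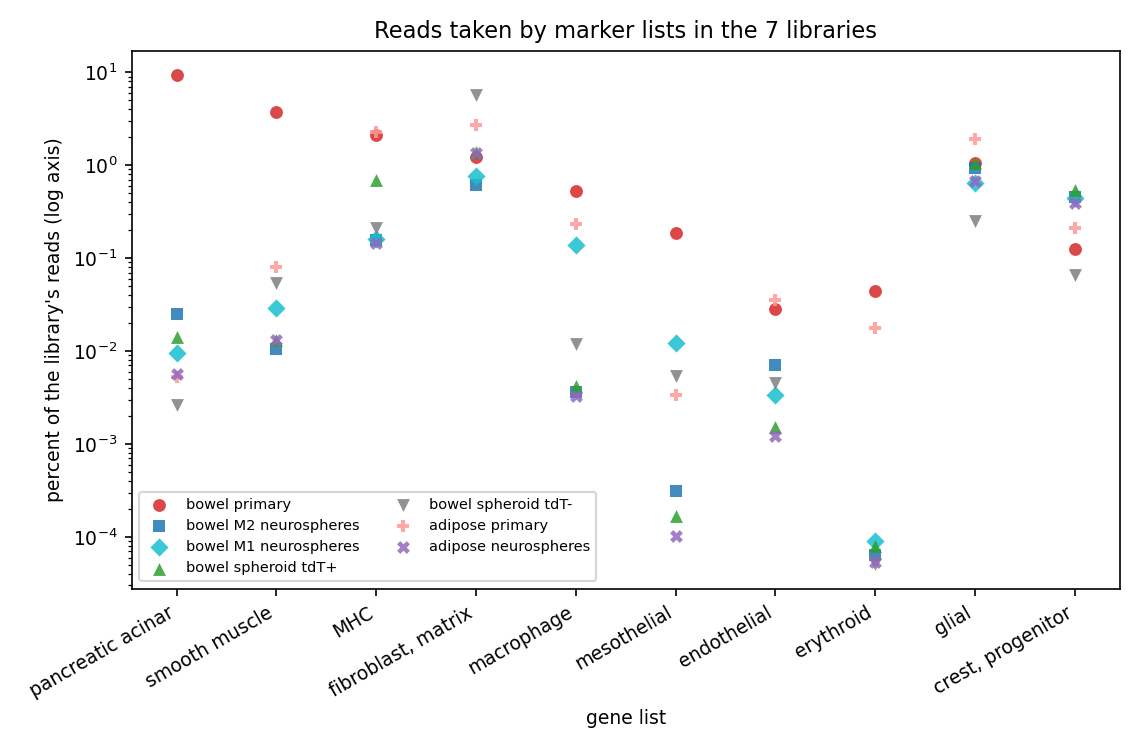
Percent of a library's reads (vertical, log axis) taken by 10 marker lists in each of the 7 libraries, 1 symbol per library. Bowel primary cells (red circles) lie highest for acinar and smooth muscle genes, at 9.31% and 3.78%, while the glial share is 1.06% in primary cells and 0.944% in M2.

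The highest ratios of the whole comparison, taken among passing genes above a minimum of 10 CPM, included genes with no read in primary cells. Pth2r, a peptide hormone receptor, had 0 reads there and 44.85 CPM in M2, at least 707-fold higher. Ucn2, the peptide urocortin 2, had 0 reads and 43.83 CPM (at least 691-fold higher), and Lrtm1 had 0 reads and 17.64 CPM (at least 278-fold higher). C1ql2, a secreted synaptic protein, had 0.139 and 43.9 CPM, and Ahrr, the repressor and target of the aryl hydrocarbon receptor, had 0.936 and 206 CPM (log2 ratio 7.46). The protocadherin Pcdh8 had 1.07 and 191 CPM, the ligand Wnt16 had 0.0693 and 15.2 CPM, the small heat shock protein Hspb3 had 0.0693 and 12.5 CPM, and the transcription factors Glis3 and Runx2 had 0.277 and 36.9 CPM, and 0.763 and 74.4 CPM. Hs6st2, a heparan sulphate sulphotransferase, had 0.485 and 54.5 CPM. Together with Olig1, Olig2, Lhfpl3 and Gldn these are the 15 highest genes. Of the 894 higher genes, 243 were under 1 CPM in primary cells and 22 had no read there.

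The 15 lowest ratios belonged to 13 acinar genes, the mesothelial Upk3b and the smooth muscle gene Cnn1. The trypsin and amylase genes among them are near-identical copies that can share reads, so their separate values are uncertain. Outside the other-cell lists, Reg3a, a secreted lectin of pancreas and gut, had 247.7 CPM in primary cells and 0 reads in M2, at least 6573-fold lower. Klk1, a kallikrein of glands, had 477 and 0.0919 CPM, and Dmbt1, a mucosal scavenger protein, had 337.7 CPM and 2 reads (log2 ratio -12.60, interval -16.76 to -11.86). Igfbp6, a binding protein of insulin-like growth factors, had 492 and 0.138 CPM. Calcb is in this group too, as are Ckm, the muscle creatine kinase (90.63 CPM and 0 reads), and Alox15, a lipoxygenase (81.87 CPM and 0 reads). These genes are outside the lists only, and the part of non-crest cells in their primary values was not tested.

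Placed among the cultured bowel cells, M2 neurospheres differed from primary cells in more genes than from the other cultures. Against M1 neurospheres 170 genes (1.20%) were higher in M2 and 1042 (7.37%) lower, 8.57% in either direction, of 14141 measured. Against the tdTomato-positive cells at day 10, before the second culture stage, 413 (3.07%) were higher and 519 (3.86%) lower, 6.94% in either direction, of 13432. The M2 library is shared by these comparisons. Proliferation and replication genes passed in neither direction in either of them, 0 of 30 in each list. Relative to the day 10 cells, Ret (274 against 22.3 CPM) and Elavl4 (125 against 11.5 CPM) were higher in M2, as was Chrna3 (60.4 against 2.31 CPM), while 15 of 17 interferon response genes and 11 of 22 immediate early genes were lower, with Ifit3 at 17.6 against 443 CPM and Egr1 at 158 against 1135 CPM. Relative to M1, 9 of 9 mesothelial genes and 6 of 11 macrophage genes were lower in M2, with Lyz2 at 17.1 against 1213 CPM. In M2, 9 of the 10 mesothelial genes found were under 1 CPM. Most were therefore measured here only through M1, so that they had to differ, and their count is a description. Transmitter genes had 7 of 15 lower than in M1 and 0 higher, among them Calb2 (0.168 against 8.79 CPM) and Tac1 (3.17 against 42.4 CPM). Against the day 10 cells the same list had 4 of 11 higher and 1 lower. Synaptic release genes had 7 of 30 lower than in M1 and 0 higher, and 8 of 27 higher than in the day 10 cells and 0 lower.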

How the data were processed

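RNA of pooled cells was amplified with SMART-Seq v4 and made into Nextera XT libraries, per the labels' protocols. The authors deposited 1 table of CPM (counts scaled to the library total) for 27179 gene identifiers in 7 libraries. Per the submitters' processing notes, bcl2fastq 2.17, HISAT, featureCounts and mm10 were used; other versions, settings and strand use: not given in the sources used here. Symbols were matched for 25275 identifiers, and the other 1904 took 0.222 to 0.351% of reads.

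The deposited CPM steps returned whole reads for every value within 0.05 read, with totals of 51885106 to 65301500 per library (57685653 in primary cells, 65301500 in M2). Ratios used these reads, scaled by edgeR 4.0.16 trimmed means over 7 libraries with a prior count of 2, for genes with at least 1 CPM in either library. A gene passed when it differed at least 4-fold and its 95% interval (exact, conditional binomial) lay beyond 2-fold. A gene with 0 reads was given a bound from a floor of 3 reads (0.0520 CPM in primary cells, 0.0459 in M2). Reads carry no molecular identifiers, so intervals and floors cover counting error only. With 1 library per group no test was run. DESeq2 1.42.0 size factors, plain CPM, totals without acinar reads, another prior, other filters and other fold limits were alternatives. The calculation was tested on simulated data.

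Named genes were the members of 40 gene lists and the 15 highest and 15 lowest passing genes, the lowest also outside the other-cell lists. Members and lists were chosen with earlier results of these data known. Some members are not reported here. Promoter windows came from RefSeq (GRCm38.p6). Work was done with Python 3.11.15, pandas 2.3.3, scipy 1.17.1, matplotlib 3.10.9 and R 4.3.3.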

Additional observations from a re-analysis of the deposited data

Results flagged for a closer look

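By a rule on size, the same contrast, neurospheres over primary cells, gave opposite directions in bowel and in adipose tissue for 2 lists and 3 genes. Lists needed medians of at least 1 in size in both tissues, over members measured separately in each. Genes were named ones that passed in both tissues with log2 ratios of at least 3 in size. They also needed more than 3 reads in every library compared and at least 10 CPM in a library of each tissue. Smaller opposite differences are left out. Each difference rests on 1 library per group and was not tested. General neuronal genes had a median log2 ratio of -2.26 in bowel and 1.41 in adipose tissue. Oligodendrocyte lineage genes had a median of 1.25 in bowel and -2.10 in adipose tissue. Gfap had a log2 ratio of 3.45 in bowel (65.6 and 874 CPM) and -3.39 in adipose tissue (13.1 and 1.35 CPM). Grem1, a BMP antagonist, had -6.59 in bowel (70.8 and 0.858 CPM) and 6.44 in adipose tissue (0.328 and 34.3 CPM). Smad6, an inhibitor of BMP signalling, had -4.07 in bowel (10.8 and 0.75 CPM) and 4.45 in adipose tissue (3.53 and 86.2 CPM).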

How the results depend on the processing

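Higher genes numbered 2936 under a 2-fold rule and 289 under an 8-fold rule, against 894. Lower genes numbered 2111 with a filter at 5 CPM, and 1949 among genes at 1 CPM in a cultured bowel crest library, a setting chosen after seeing the data, against 3188. Other scalings kept both counts within 1.5 times: DESeq2 size factors gave 874 higher and 3201 lower, and totals without acinar reads 1061 and 3062. With plain CPM 29.9% of passing genes were higher, against 21.9%. Of 679 named genes, 0 reversed; with plain CPM 13 no longer passed and 22 newly passed, and with DESeq2 size factors 3 no longer passed, among them Rarg and Ret. The medians of the neurogenic factor (-1.12 to 0.34), glial, myelin and Notch (-0.92 to 0.63) lists changed sign across settings. No paired analysis was possible because each group is 1 library. No library could be left out for the same reason, and biological variation between mice cannot be told apart from the effect of culture.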

Other observations

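Hox genes record position along the body axis. Of 13 genes of groups 1 to 5, 4 were lower and 0 higher (median log2 ratio -1.12), against 21.0% lower among all genes, and with plain CPM 2 were lower and 1 higher. The 4 include Hoxa5 (94.4 CPM in primary cells, 13 CPM in M2) and Hoxb5 (71.5 and 10.8 CPM). Of 7 genes of groups 6 to 13, 3 were lower, with Hoxc8 at 25.5 CPM and 2 reads (log2 ratio -8.88, interval -13.03 to -8.13), while Hoxb7 (19.8 and 16.1 CPM) did not pass.

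Few energy genes passed in either direction, where 26.9% of all genes measured did (5.89% higher and 21.0% lower). Of 22 genes of glycolysis and hypoxia, 1 was higher, the lactate transporter Slc16a3 (6.83 and 41.6 CPM), and 2 were lower, among them the oxygen sensor Egln3 (61.4 and 7.98 CPM). Ldha, the lactate dehydrogenase, had 1093 and 2529 CPM and did not pass. Of 13 mitochondrially encoded genes 12 passed in neither direction (median log2 ratio -0.85). The remaining gene was higher, at a log2 ratio of 3.31, and was the only member above 0. The mitochondrially encoded list took 1.45% of reads in primary cells and 0.925% in M2.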
